A study of Mus musculus with 25 samples.

Results

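Dermal fibroblasts sorted from neutrophil-depleted mice were set against the same cells from control mice, gene by gene, in the 6 skin fibroblast libraries among the 25 libraries of the series. The members were the skin fibroblast columns of the skin table, 3 depleted (2, 4 and 5) and 3 control (3, 4 and 5), with every gene of that table. Depleted mice carried Mrp8_CRE; Rosa26_DTR, and control mice carried Mrp8_WT; Rosa26_DTR, both on C57BL/6. All mice of both groups received diphtheria toxin intraperitoneally at 10 ug/kg for 7 days, so toxin and receptor allele were shared and the Cre allele was the labelled difference. The series profiled macrophages and fibroblasts of lung and skin by RNA-seq under this scheme.

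Mrp8 is another name of S100a8, whose promoter is active chiefly in neutrophils and also in some other myeloid cells. Cre made under it switches on the diphtheria toxin receptor, and toxin then kills the cells that carry the receptor. Dermal fibroblasts lay down the collagen-rich matrix of skin, remodel it with proteases, and exchange chemokines and growth factors with leukocytes. Fibrillar collagens give the dermis its tensile strength, and type I collagen, made of 2 alpha 1 chains and 1 alpha 2 chain, is the most abundant of them. The labels do not say whether libraries came from separate mice, how the mice's ages compared, or how complete the depletion was.

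Cells had been sorted as negative for CD45, CD31 and EPCAM and positive for CD90.1 and PDGFRA. Levels are given as the authors' normalised signal, called units here; they are not corrected for gene length, so levels are compared between libraries and not between genes. Pdgfra, the platelet-derived growth factor receptor used in the sort, measured 346, 205 and 311 units in depleted libraries 2, 4 and 5, against 457, 356 and 380 units in control libraries 3, 4 and 5. Thy1, which encodes CD90, measured 231, 114 and 147 units in depleted libraries, against 241, 197 and 255 units in control libraries. Both sort markers were present in every library, and for Pdgfra all depleted libraries lay below all control libraries. Ptprc, the gene of CD45, ranged from 0.028 to 3.15 units in depleted libraries and from 0.241 to 0.425 units in control libraries. Pecam1, the gene of CD31, did not exceed 1.22 units in depleted libraries or 0.341 units in control libraries. Epcam, an epithelial adhesion gene, measured 3.93, 42.4 and 24.1 units in depleted libraries, against 0.305, 9.51 and 16.0 units in control libraries. The gene of one negative sort marker, Epcam, was therefore detected in 5 of 6 libraries above 1 unit.

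The libraries held between 12842735 and 20299735 estimated reads over 12661 genes, as recovered from the low values of the table. Depleted 4 and control 3 stood apart: 12.0% and 10.6% of genes had no read in them, against 1.94% to 5.68% in the other 4 libraries, and their median correlation with the other libraries was 0.681 and 0.717, against 0.856 to 0.878. Xist, transcribed from the inactive X chromosome, measured 108.9 units in depleted 2 and 196.6 units in control 3, and at most 0.338 units in the other libraries. Ddx3y, a gene of the Y chromosome, measured 160.8 and 100.5 units in depleted 4 and 5, against 85.4 and 113.7 units in control 4 and 5, and it was at 0.109 units in depleted 2 and 0.102 units in control 3. Each group therefore held 1 library with Xist and 2 with Y-linked transcripts, so each drew on at least 2 mice.

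Keratinocyte transcripts differed widely between the libraries. Keratins 5 and 14 form the filaments of the basal epidermal layer, and keratins 1 and 10 replace them as cells move upward. A set of 40 basal, suprabasal and hair follicle genes took 0.233%, 3.19% and 2.63% of the signal in depleted libraries 2, 4 and 5, against 0.571%, 0.735% and 0.667% in control libraries 3, 4 and 5. Depleted 4 and 5 were above every control library and depleted 2 was below every control library, so the groups overlapped. The mean was 2.02 ± 1.57% in depleted libraries and 0.658 ± 0.082% in control libraries (SD, n = 3 each), and a two-sided exact permutation test gave p = 0.4, where the smallest p that 3 against 3 allows is 0.1.

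**Figure D1:**
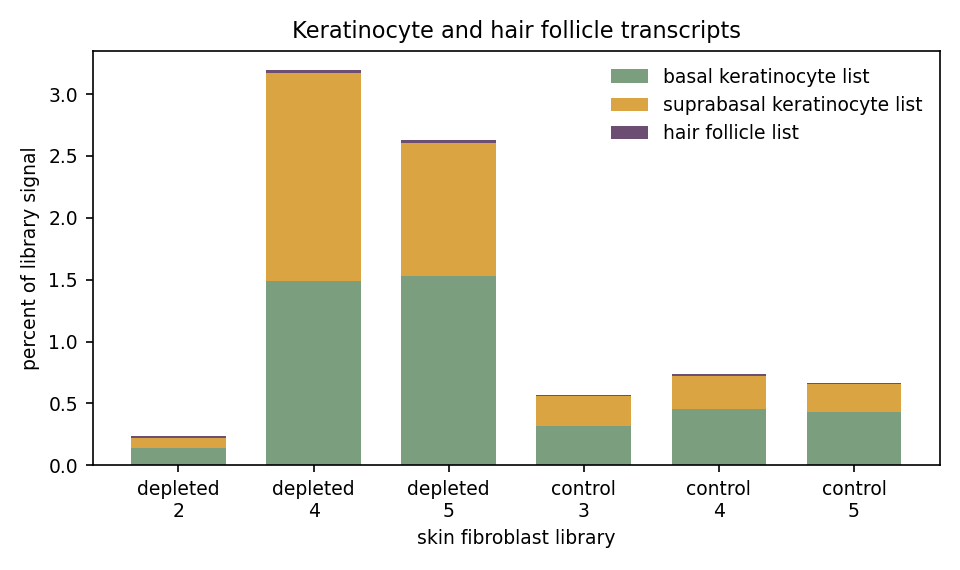
Share of each library's signal (percent, stacked bars) taken by the basal keratinocyte, suprabasal keratinocyte and hair follicle lists in the 6 skin fibroblast libraries. Depleted 4 and depleted 5 stand at 3.19% and 2.63%, depleted 2 at 0.233%, and the control libraries between 0.571% and 0.735%.

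Krt1 measured 22.0, 384 and 270 units in depleted libraries, against 17.6, 27.3 and 30.7 units in control libraries. Its log2 fold change was 2.39 ± 0.84 (SE). It was the 1 of 34 tested basal and suprabasal genes with an unadjusted p below 0.05 in the limma fit (1.39% of all genes were higher at that p). Sfn, the epithelial 14-3-3 protein, measured 39.8, 1102 and 601 units in depleted libraries, against 18.0, 144 and 93.8 units in control libraries. Trp63, the transcription factor of the basal layer, measured 35.5, 178 and 238 units in depleted libraries, against 38.7, 46.9 and 56.9 units in control libraries. In all 3 genes depleted 4 and 5 were far above the controls, while depleted 2 lay within the control range for Krt1 and Sfn and just below it for Trp63. All 18 basal and all 16 suprabasal genes tested had a positive log2 fold change, with medians of 0.69 and 1.311, against 51.6% positive and 48.4% negative over all genes tested and a median over all genes of 0.03. Between the libraries with Xist, depleted 2 against control 3, those medians were -0.96 and -1.63, and between the libraries with Ddx3y they were 1.64 and 2.68. The direction of the epidermal genes thus depended on which libraries were compared, and the part of these transcripts in the other results was not tested beyond the values given beside them.

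The 7 sebaceous gland genes took 0.0733%, 0.0982% and 0.0713% of the signal in depleted libraries, against 0.0606%, 0.058% and 0.0557% in control libraries, so every depleted library was above every control library. By gene, 4 of the 7 were positive and 3 negative, and the groups overlapped in all 7 (they did not in 8.47% of all genes tested). Their part in the other results was not tested. S100a8, the gene whose promoter drove Cre, measured 0.035, 0.029 and 26.02 units in depleted libraries, against 0.034, 0.154 and 0.936 units in control libraries. Its partner S100a9 measured 0.035, 0.145 and 13.1 units in depleted libraries, against 0.034, 0.022 and 0.312 units in control libraries. Only depleted 5 exceeded 1 unit of either, and neither gene passed the filter on low values. The 16 macrophage genes together took 0.00804%, 0.00249% and 0.00498% of the signal in depleted libraries, against 0.00375%, 0.00475% and 0.00475% in control libraries. The ranges of that share overlapped. Of 9 macrophage genes tested 5 were positive and 4 negative, and 2, Cd68 and C1qc, were higher without overlap (4.28% of all genes were). Cd68 measured 6.62, 5.19 and 4.39 units in depleted libraries, against 1.25, 3.76 and 0.766 units in control libraries. The endothelial, mast cell, melanocyte, skeletal muscle and erythroid lists each took at most 0.0132% in any library. These fibroblast libraries give no measure of how many neutrophils the mice had. Hbegf, the mouse gene whose primate counterpart serves as the toxin receptor, measured 8.395, 21.2 and 9.85 units in depleted libraries, against 0.102, 16.3 and 1.39 units in control libraries, and the groups overlapped.

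No gene passed the adjusted threshold between depleted and control skin fibroblasts. Of 12661 genes, 11780 passed a filter of 1 ppm of the library's own signal in at least 3 of the 6 libraries. Of these, 0 (0%) had a Benjamini-Hochberg adjusted p below 0.05 in the limma fit, and the lowest adjusted p was 0.956. At an unadjusted p below 0.05 there were 282 genes, 2.39% of those tested, of which 164 (1.39%) were higher and 118 (1%) lower in depleted libraries. The 2 groups did not overlap in 998 genes, 8.47%, with 504 (4.28%) higher and 494 (4.19%) lower. The median 95% interval reached 1.74 log2 units either side of the estimate. It reached 0.70 for the 1602 genes with a mean of at least 100 units and 2.55 for genes with a mean under 10 units. An estimate smaller than the reach of its own interval has an unadjusted p above 0.05 in the limma fit. The adjusted threshold asked for more, so larger changes could also go uncalled with these libraries. Without depleted 2, 16 genes had an adjusted p below 0.05 in the limma fit, all higher in depleted libraries. Of these, 10 were on the keratinocyte lists, among them Krt1 and Krt10. The others were Clca3a2, Serpinb5, Calm4, Serpinb2, Anxa8 and Pkp1. The lists do not hold every epidermal gene, so absence from them does not make a gene one of fibroblasts.

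**Figure D2:**
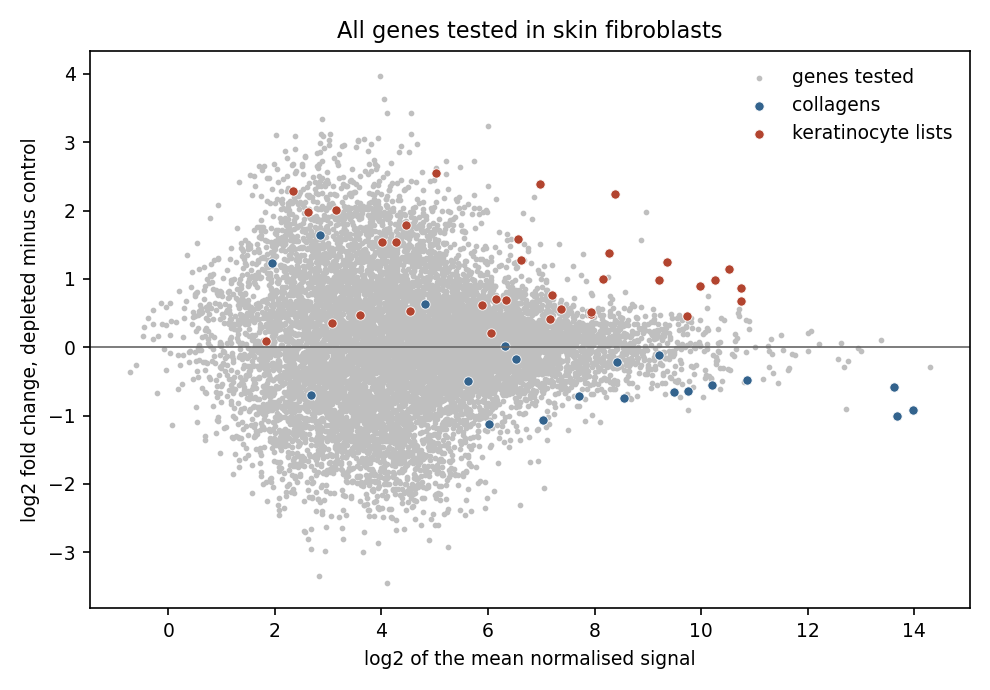
Log2 fold change (depleted minus control, vertical axis) against log2 of the mean normalised signal (horizontal axis) for the 11780 genes tested, with the 20 tested collagens and the 34 tested basal and suprabasal keratinocyte genes in colour. The spread narrows as the signal grows, all keratinocyte genes lie above 0, and 16 of the 20 collagens lie below it.

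The 8 genes of lowest p in each direction are described next as values, since none was called. Tpd52, on chromosome 3, encodes a protein of membrane traffic and had the lowest p of all. It measured 45.5, 121 and 112 units in depleted libraries, against 11.1, 23.99 and 29.4 units in control libraries. Every depleted library was above every control library, and the log2 fold change was 2.04 ± 0.54 (SE; limma adjusted p = 0.956). Fosl1, the AP-1 subunit Fra-1, measured 4.64, 8.72 and 10.6 units in depleted libraries, against 0.034, 0.110 and 0.085 units in control libraries. Its fitted log2 fold change was 3.11 ± 0.96 (SE), which depends on the pseudocount because the controls held only 3 reads, against 402 in the depleted libraries. The ratio of pooled reads per unit depth was 154.5 with a counting interval of 52.5 to 752, which takes amplified reads as independent and leaves out the spread between libraries. Fosl1 passed the filter through the depleted libraries alone, so it had to differ. Dynlt3, a dynein light chain, measured 150, 221 and 168 units in depleted libraries, against 94.3, 99.4 and 80.6 units in control libraries. Cltb, clathrin light chain B, measured 218, 414 and 245 units in depleted libraries, against 96.7, 154 and 162 units in control libraries. Depleted 4 was the highest library for both, and the groups did not overlap. The other 4 on the higher side, Mall, Slc2a12, Fibin and Vps72, had log2 fold changes between 1.51 and 3.97.

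On the lower side, Fkbp14, a prolyl isomerase of the endoplasmic reticulum that assists collagen folding, measured 72.9, 42.2 and 78.0 units in depleted libraries, against 165, 142 and 126 units in control libraries. Its log2 fold change was -1.19 ± 0.34 (SE; limma adjusted p = 0.956), and depleted 4 was the lowest library. Creb3l1, a transcription factor of the endoplasmic reticulum known to drive type I collagen genes in bone, measured 111, 46.5 and 70.2 units in depleted libraries, against 239, 143 and 130 units in control libraries. Reck, a membrane-anchored inhibitor of matrix metalloproteinases, measured 109, 98.5 and 90.1 units in depleted libraries, against 285, 160 and 165 units in control libraries. In each of these 3 genes the highest depleted library lay below the lowest control library. Cpz, a secreted carboxypeptidase that binds Wnt proteins, measured 138, 44.8 and 66.6 units in depleted libraries, against 165, 200 and 213 units in control libraries. Slit2, a secreted guidance ligand of Robo receptors, measured 107, 20.3 and 69.7 units in depleted libraries, against 268, 135 and 141 units in control libraries. Igsf10, Khdrbs3 and Sppl2a completed the set, with log2 fold changes of -1.09, -3.44 and -1.24. Between depleted 2 and control 3 the log2 gap was -0.07 for Igsf10 and -0.26 for Cpz. These 16 were picked for their low p, so the separation of their groups is a description, and it fixes their direction in any subset of the libraries.

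**Figure D3:**
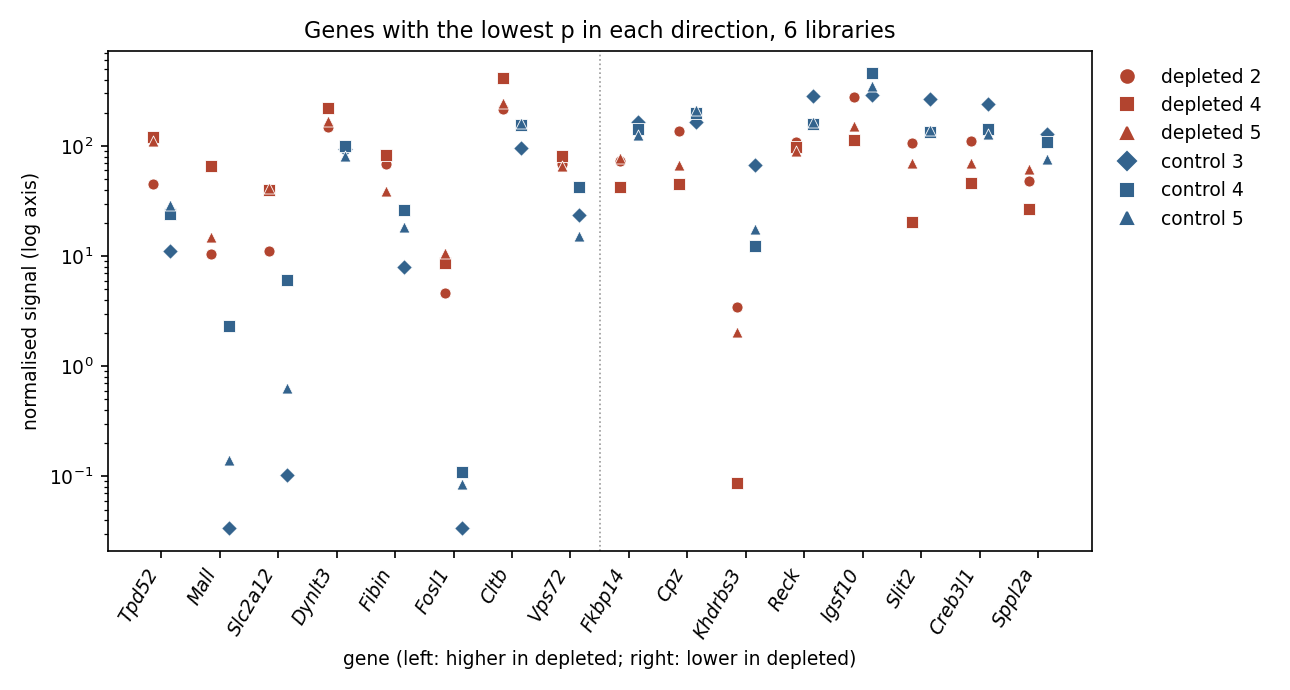
Normalised signal (log axis) of the 8 genes of lowest p in each direction, one point per library, with depleted libraries left of control libraries for each gene. The groups do not overlap in any of the 16 genes, and Mall, Slc2a12, Fosl1 and Khdrbs3 reach values near no reads in some libraries.

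The fibrillar collagens were lower in depleted libraries by the largest median of the matrix lists described here, without any member passing the adjusted threshold. Of 9 tested, 7 had a negative log2 fold change (48.4% of all genes did). In 2 the unadjusted p was below 0.05 with lower values (1% of all genes), and in 4 the groups did not overlap, with lower values (4.19% of all genes). The median log2 fold change of the list was -0.65, against 0.03 over all genes. Together these genes took 3.24%, 3.18% and 3.88% of the signal in depleted libraries, against 4.28%, 6.53% and 7.42% in control libraries. The highest depleted library was below the lowest control library. Fewer collagen-making cells in the sorted pool and less collagen RNA per cell cannot be told apart in such bulk libraries, and the same holds for every difference below.

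Col1a1, the alpha 1 chain of type I collagen (chr11:94936224-94953042, GRCm38.p6), measured 10202, 9118 and 13950 units in depleted libraries, against 14710, 23002 and 26316 units in control libraries. The log2 fold change was -0.93 with a 95% interval of -2.09 to 0.24. Col1a2, the alpha 2 chain, measured 10218, 8581 and 7274 units in depleted libraries, against 15814, 17517 and 18725 units in control libraries. That of Col1a2 was -1.01 with an interval of -2.05 to 0.03. Both chains were lower in every depleted library than in any control library. Col5a1, a chain of type V collagen, which starts type I fibrils and sets their width, lies at chr2:27886425-28039514. It measured 265, 326 and 248 units in depleted libraries, against 349, 498 and 574 units in control libraries, a log2 fold change of -0.74 ± 0.28 (SE; limma adjusted p = 0.956). Col5a2, its partner chain (chr1:45374321-45503282), measured 563, 522 and 583 units in depleted libraries, against 766, 893 and 975 units in control libraries, a log2 fold change of -0.65 ± 0.25 (SE; limma adjusted p = 0.956). The 4 genes shared a pattern in which control 3 was the lowest control library yet still above all depleted libraries. Col3a1, the type III chain, had a log2 fold change of -0.58 with overlapping groups, or 0.0045 after quantile normalisation, and Col24a1 had a positive one of 1.23 that rested on depleted 4; both were chosen after their values were seen.

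Promoters are shown for the type I and type V chains because these genes were lower together; RefSeq's GRCm38.p6 promoter table held Col1a2 and Col5a1 of the 4. Each is the 250 bases before the start given there, on the + strand, with capitals at CCAAT (bound by NF-Y) and GGGCGG (bound by Sp1-type factors) read on either strand.
Col1a2, chr6:4505368-4505617: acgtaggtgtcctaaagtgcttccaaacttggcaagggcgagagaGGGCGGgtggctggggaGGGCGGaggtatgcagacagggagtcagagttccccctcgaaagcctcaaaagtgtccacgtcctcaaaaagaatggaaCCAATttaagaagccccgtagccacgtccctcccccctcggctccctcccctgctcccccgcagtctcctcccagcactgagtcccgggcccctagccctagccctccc
Col5a1, chr2:27886175-27886424: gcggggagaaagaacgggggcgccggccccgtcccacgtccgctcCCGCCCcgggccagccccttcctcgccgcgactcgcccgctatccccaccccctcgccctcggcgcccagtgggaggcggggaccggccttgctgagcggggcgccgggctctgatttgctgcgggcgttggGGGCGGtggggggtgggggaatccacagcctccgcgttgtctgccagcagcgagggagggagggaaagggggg
In these windows Col1a2 held 1 CCAAT and 2 GGGCGG, Col5a1 held 0 CCAAT and 2 GGGCGG, and neither held TATAAA. The annotation that gave the gene positions starts Col1a2 at chr6:4504814, so the Col1a2 window lies inside that annotated gene. The bases around that other start were not read, so these counts hold for the printed window only. Among 32851 promoters of the same length, 33.8% held CCAAT, 32.7% GGGCGG and 12.4% TATAAA, on either strand and with overlaps between motifs allowed. These matches are letters in a window and do not show which factor, if any, is bound there.

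Of the other interstitial collagens, 9 of 11 tested had a negative log2 fold change, with a median of -0.49 that lay between -0.77 and -0.37 when each library was left out in turn. In 4 the unadjusted p was below 0.05 with lower values (1% of all genes), and in 6 the groups did not overlap, all lower in depleted libraries (4.19% of all genes). Type VI collagen forms beaded filaments around cells and is built chiefly from the products of Col6a1, Col6a2 and Col6a3. Col6a1 measured 1709, 1246 and 1703 units in depleted libraries, against 1789, 2240 and 2440 units in control libraries. Col6a2 measured 1272, 729 and 909 units in depleted libraries, against 1356, 1319 and 1511 units in control libraries. Col6a3 measured 870, 567 and 592 units in depleted libraries, against 976, 944 and 1205 units in control libraries. All 3 chains had depleted 4 as their lowest library and did not overlap between groups; Col6a1 and Col6a2 were named after their values were seen. Col12a1, a fibril-associated collagen, measured 211, 115 and 155 units in depleted libraries, against 236, 292 and 241 units in control libraries. Col16a1 and Col23a1 had log2 fold changes of -1.07 ± 0.40 and -1.12 ± 0.45 (SE).

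**Figure D4:**
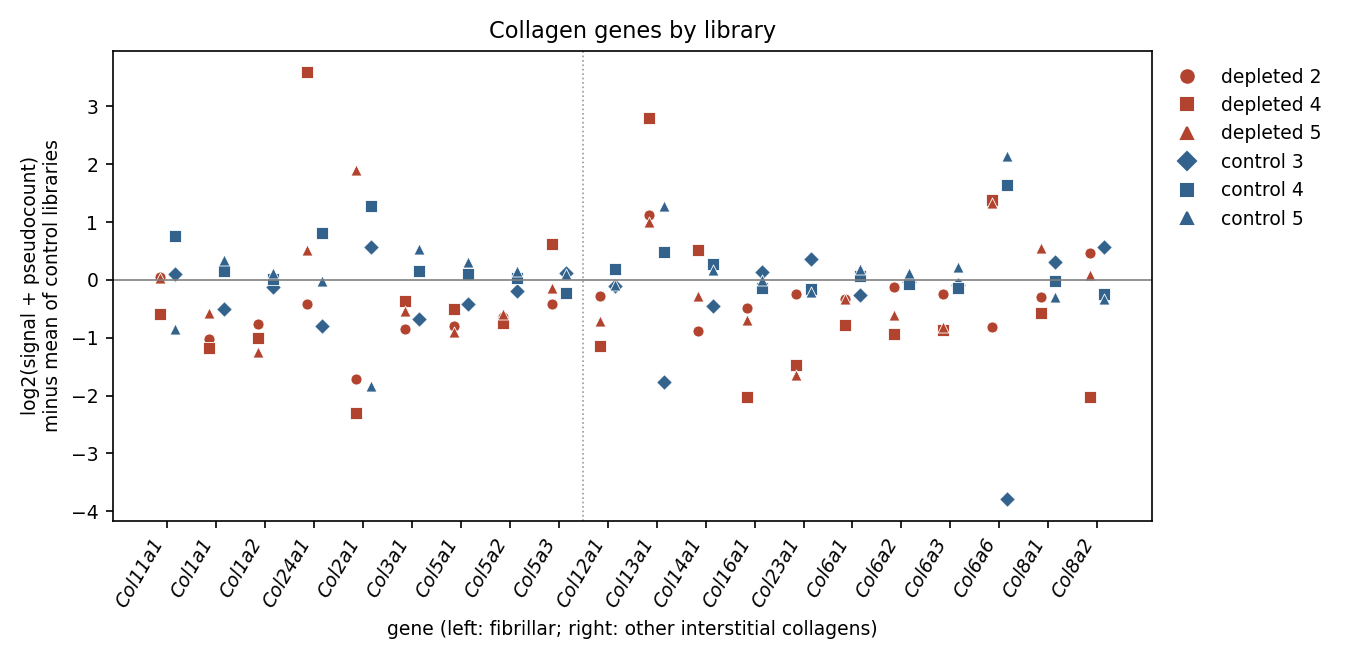
Collagen genes in the 6 libraries as log2(signal + pseudocount) minus the mean of the control libraries; each point is a library, depleted left of control, with the fibrillar genes on the left. The 3 depleted points lie below all control points for 4 fibrillar and 6 other genes, while Col24a1, Col13a1 and Col6a6 scatter widely.

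The collagen medians were also read with the keratinocyte level in the fit and in subsets of the libraries. In 6 of the 11 other interstitial collagens all depleted libraries lay below all controls, which by itself keeps the median of that list below 0 in any subset, so only its size varies. In the fibrillar list 4 of 9 genes were separated in this way, so any further negative gene keeps its median below 0 in a subset. The fibrillar median was -0.70 with the keratinocyte level as a covariate. It was -0.76 without depleted 4 and depleted 5, the libraries rich in keratinocyte transcripts, which leaves depleted 2 as the only depleted library. It was -0.44 between depleted 2 and control 3, where 8 of 9 genes were negative, and -0.76 between the libraries with Ddx3y, where 6 of 9 were negative. For the other interstitial collagens the same values were -0.38 with the covariate, -0.28 without depleted 4 and depleted 5, -0.16 between depleted 2 and control 3, and -0.68 between the libraries with Ddx3y. The fibrillar median lay between -0.84 and -0.45 when each library was left out in turn, and it was -1.03 without depleted 4 and control 3, the libraries that stood apart. The last setting and the one without depleted 4 and depleted 5 were chosen after seeing the data.

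Genes that process collagen did not share a direction as a list. Of 29 tested, 19 were negative with a median of -0.07, which was 0.36 between the libraries with Xist and -0.54 between those with Ddx3y. Fkbp14, described above, Loxl2 and Crtap had an unadjusted p below 0.05 with lower values (1% of all genes did). Loxl2, a lysyl oxidase that cross-links collagen, measured 214, 178 and 170 units in depleted libraries, against 293, 252 and 362 units in control libraries. Crtap, a subunit of the prolyl 3-hydroxylation complex, measured 223, 93.1 and 143 units in depleted libraries, against 301, 279 and 211 units in control libraries. The groups did not overlap for Loxl2 and overlapped for Crtap, where depleted 2 lay above control 5.

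Other matrix lists leaned lower by amounts that depended on the libraries. Of the elastic fibre genes 16 of 18 tested were negative with a median of -0.27, and of the matricellular genes 15 of 22 with a median of -0.29. Of proteoglycan and hyaluronan genes 11 of 18 were negative with a median of -0.20, and of proteases and inhibitors 18 of 22 with a median of -0.36. No gene of these 4 lists had an unadjusted p below 0.05. Between depleted 2 and control 3 the 4 medians were positive, at 0.15, 0.11, 0.13 and 0.26 in that order. The median over all genes between these libraries was 0.14, so the first 3 lay close to that of all genes. Without depleted 4 the matricellular and protease medians were 0.01 and 0.03. Postn, the matricellular protein periostin that takes part in collagen assembly, measured 5971, 4309 and 3799 units in depleted libraries, against 6117, 9987 and 10366 units in control libraries. Mfap2, a microfibril protein, measured 1355, 924 and 848 units in depleted libraries, against 1460, 1747 and 1479 units in control libraries. Tnc, tenascin C, measured 693, 521 and 304 units in depleted libraries, against 865, 670 and 797 units in control libraries. The groups did not overlap for Postn and Mfap2, though depleted 2 and control 3 were close in both, and they overlapped for Tnc. Mmp3, stromelysin 1, measured 495, 175 and 296 units in depleted libraries, against 465, 514 and 517 units in control libraries. Depleted 4 was lowest and depleted 2 was inside the control range. Podn, a small leucine-rich proteoglycan, had a log2 fold change of -0.85 ± 0.41 (SE) and Fmod, fibromodulin, one of 0.44 ± 0.29 (SE), both with overlapping groups.

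In the basement membrane list 16 of 23 genes tested were negative with a median of -0.20, which lay between -0.40 and 0.0050 when each library was left out in turn. Agrn, the heparan sulphate proteoglycan agrin, went the other way at 7.83, 43.9 and 13.2 units in depleted libraries, against 0.034, 4.51 and 1.05 units in control libraries, a log2 fold change of 3.04 ± 1.13 (SE). Every depleted library was above every control library, and depleted 4, rich in keratinocyte transcripts, was highest. Lama2, a laminin chain, measured 284, 349 and 178 units in depleted libraries, against 344, 412 and 444 units in control libraries.

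**Figure D5:**
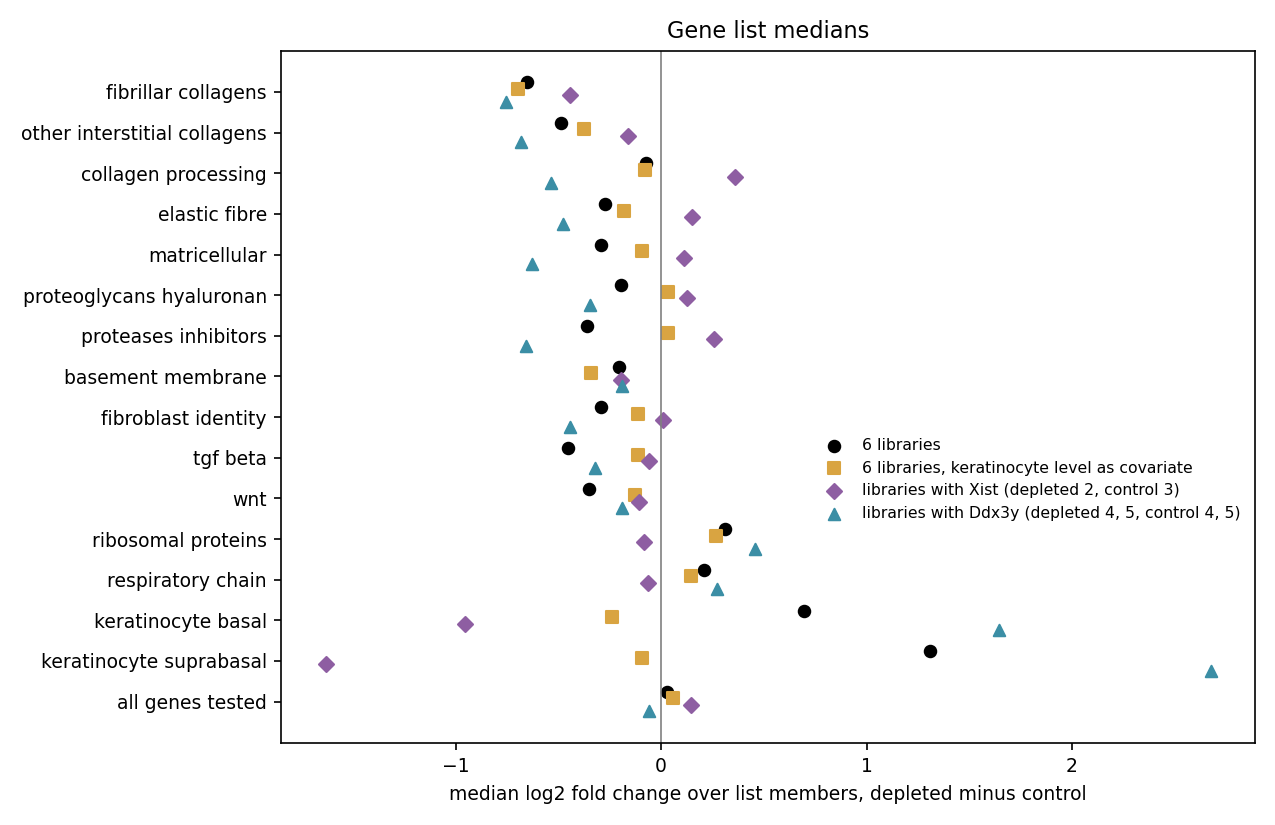
Median log2 fold change (depleted minus control) of 15 gene lists and of all genes tested, from all 6 libraries, from all 6 with the keratinocyte level as a covariate, from the libraries with Xist, and from those with Ddx3y. The fibrillar median lies between -0.76 and -0.44 in the 4 readings, and the keratinocyte lists run from -1.63 to 2.68. Most other matrix lists change side between the libraries with Xist and those with Ddx3y. The median over all genes does too, at 0.14 and -0.06.

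Among signalling genes, TGF-beta, the main inducer of fibroblast collagen synthesis, had 21 of 26 pathway genes negative with a median of -0.45 and none with an unadjusted p below 0.05. That median was -0.11 with the keratinocyte covariate and -0.03 without depleted 4. In the Wnt list 25 of 34 genes were negative with a median of -0.35, which became 0.18 without depleted 4. Frzb, a secreted Wnt antagonist, measured 22.8, 0.029 and 11.3 units in depleted libraries, against 54.1, 23.4 and 36.9 units in control libraries. Wnt5a, a non-canonical Wnt ligand, measured 89.5, 10.7 and 51.7 units in depleted libraries, against 165, 76.5 and 76.8 units in control libraries. Depleted 4 had the lowest value of both genes, at no read for Frzb, and the groups overlapped for Wnt5a. In the BMP list 15 of 22 were negative, while Gdf5, Bmp3 and Bmp5 had all depleted libraries above all controls (4.28% of all genes did). Gdf5, a BMP family ligand, measured 19.7, 10.1 and 19.1 units in depleted libraries, against 0.034, 8.03 and 0.255 units in control libraries, a log2 fold change of 2.95 ± 1.15 (SE). Bmp3, a BMP antagonist of the same family, measured 20.0, 30.3 and 24.2 units in depleted libraries, against 0.072, 14.5 and 13.8 units in control libraries. Of 28 growth factor genes tested 17 were negative with a median of -0.38. That median was -0.06 without depleted 4 and 0.15 between depleted 2 and control 3, where the median over all genes was 0.14. In 2 of the 28, Igfbp5, an IGF-binding protein, and Kitl, the gene of stem cell factor, all depleted libraries lay below all controls (4.19% of all genes did).

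Among signals exchanged with leukocytes, 1 of 21 chemokine genes and 2 of 19 inflammatory mediator genes tested were lower without overlap (4.19% of all genes were). In both lists 0 genes were higher without overlap (4.28% of all genes were). Of the chemokine genes 11 were negative. Cxcl12, the chemokine that retains CXCR4-bearing leukocytes such as neutrophils in bone marrow, measured 1136, 355 and 454 units in depleted libraries, against 1110, 1105 and 1010 units in control libraries. Its log2 fold change was -0.92 ± 0.39 (SE; limma adjusted p = 0.956), and depleted 2 was level with the controls while depleted 4 and 5 were far below them. These were the 2 libraries with the high keratinocyte share. Without them, which leaves depleted 2 as the only depleted library, the log2 fold change was 0.08. Whether the Cxcl12 values and the keratinocyte share are linked was not tested. Ccl11, the eosinophil attractant eotaxin, measured 134.5, 135.8 and 150.8 units in depleted libraries, against 192, 185 and 193 units in control libraries. The 6 values formed 2 tight groups with no overlap, and the log2 fold change was -0.44 ± 0.26 (SE). Il1r1, the interleukin 1 receptor, measured 104, 13.9 and 79.5 units in depleted libraries, against 141, 105 and 137 units in control libraries. Icam1, the leukocyte adhesion ligand, measured 85.2, 47.6 and 87.9 units in depleted libraries, against 96.4, 132 and 128 units in control libraries. In both genes depleted 4 was lowest and the groups did not overlap, though for Il1r1 the gap between depleted 2 and control 4 was under 1 unit.

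Interferon response genes were evenly divided, 13 positive and 13 negative of 26 tested. In the MHC class I list 12 of 16 were positive with a median of 0.25, which lay between 0.077 and 0.40 when each library was left out in turn. Psme2, a proteasome activator subunit induced by interferon gamma, measured 179, 222 and 159 units in depleted libraries, against 115, 113 and 110 units in control libraries. The log2 fold change of Psme2 was 0.71 ± 0.28 (SE; limma adjusted p = 0.956), and the controls lay between 110 and 115 units. H2-K1, a class I heavy chain, measured 187, 183 and 148 units in depleted libraries, against 115, 116 and 141 units in control libraries. Both had all depleted libraries above all controls. Calr, the chaperone calreticulin, lay the other way without overlap, at 316, 294 and 358 units in depleted libraries, against 561, 378 and 416 units in control libraries. The counting of a class I gene may share reads with its near-identical relatives, so the H2-K1 value is uncertain.

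Fibroblast identity genes were present in every library, at 8.56%, 6.23% and 7.03% of the signal in depleted libraries, against 9.07%, 10.5% and 11.7% in control libraries. Of 16 genes 14 were negative with a median of -0.29, and Pdgfra, Col1a1 and Col1a2 were lower without overlap (4.19% of all genes were). The median lay between -0.52 and -0.13 when each library was left out in turn, and between depleted 2 and control 3 it was 0.01, with 8 of 16 negative. That list holds type I and III collagen genes, so its share of the signal repeats part of the collagen result. Reticular and fascia genes were divided 10 to 9 and papillary genes 6 to 8, positive to negative. Dlk1, a Notch-family ligand of reticular and preadipocyte fibroblasts, measured 71.0, 26.9 and 109 units in depleted libraries, against 144, 136 and 172 units in control libraries. Dlk1 had a log2 fold change of -1.32 ± 0.46 (SE; limma adjusted p = 0.956), and the groups did not overlap. Limch1, a regulator of non-muscle myosin, measured 24.6, 13.4 and 15.9 units in depleted libraries, against 0.102, 6.53 and 6.41 units in control libraries. Here too the groups did not overlap, with control 3 near no reads.

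The collagen genes were also read in the lung fibroblasts of the series, 3 depleted and 3 control libraries sorted without CD90.1 and normalised in a table of their own. In that fit 1 of 11867 genes was called (0.00843%), the airway club cell gene Scgb1a1, named after its value was seen; 598 (5.04%) had an unadjusted p below 0.05, and the median over all genes was -0.01. The fibrillar list had 5 of 7 tested genes negative (50.7% of all genes were) with a median of -0.30, and the other interstitial collagens 6 of 9 with a median of -0.37. Col6a1 measured 289, 297 and 167 units in depleted lung libraries, against 472, 402 and 380 units in control lung libraries. Its log2 fold change was -0.77 ± 0.26 (SE; limma adjusted p = 0.969). Col1a2 measured 714, 691 and 473 units in depleted lung libraries, against 925, 731 and 893 units in control lung libraries, a log2 fold change of -0.46 ± 0.24 (SE; limma adjusted p = 0.969). The groups did not overlap for either gene, and the share of all lung genes without overlap was not counted. They overlapped for Col1a1, at 247, 224 and 113 units in depleted lung libraries, against 352, 217 and 241 units in control lung libraries. Those of Col3a1 overlapped too, with a log2 fold change of -0.32. Col5a1 measured 15.4, 33.0 and 25.9 units in depleted lung libraries, against 40.9, 2.89 and 12.5 units in control lung libraries, and its groups overlapped. Whether skin and lung fibroblasts differed from each other in these changes was not tested.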

How the data were processed

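Skin fibroblast RNA was amplified and sequenced as 61-nt single-end reads, per the labels' protocols; the submitters' processing notes name CASAVA 1.8, cutadapt 1.7.1, RSEM, limma 3.46 and mm10. The authors deposited 1 normalised signal per gene and library. Its low values step as (reads + 0.5) times a constant of the library, which gave estimated depths of 12842735 to 20299735 reads; only 36.4% to 40.3% of values were whole within 0.01, so no count test was used. Genes with at least 1 ppm of the library's own signal in at least 3 libraries were tested. The test was run on log2(signal + 0.908) with limma 3.58.1 (R 4.3.3, trend, Benjamini-Hochberg), adjusted over all genes tested. Gene names matched 12641 of 12661 IDs. The labels name no separate animals, so p-values measure the spread between libraries. The labels do not say what the replicate numbers mark, and only 4 and 5 occur in both groups; the fit has no block, and the fit with one is an alternative. The genes named are the 8 of lowest p per direction, the 4 of lowest p per list, and the sort, neutrophil, receptor and sex-linked genes; exceptions are stated. Members and lists were chosen with earlier results of these data known. The fit was tested on simulated data. Alternatives changed the pseudocount, filter, scaling, variance model, covariates and libraries.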

Additional observations from a re-analysis of the deposited data

Results flagged for a closer look

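The keratinocyte and hair follicle share ran in opposite directions in the 2 sets of libraries told apart by their sex-linked transcripts. Depleted minus control, it was -0.338 percentage points between the libraries with Xist (depleted 2, control 3) and 2.21 percentage points between those with Ddx3y (depleted 4 and 5, control 4 and 5). With 1 library a group in the first set, the difference was not tested.

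In the skin macrophage libraries, which enter no comparison here, 2 labelled as control macrophages carried a fibroblast profile. The fibroblast identity genes took 9.50% of the signal in the library labelled control macrophages 1 and 11.6% in the library labelled control macrophages 5, against 0.508% in control macrophages 3 and 0.274% to 0.528% in the 4 depleted macrophage libraries.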

How the results depend on the processing

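The number of genes called was 0 in every setting run except 2. Without depleted 2 it was 16, all higher, so leaving out each library gave 0 to 16 calls, 0 to 16 of them higher. With the replicate block it was 87, with 45 higher (21 on the keratinocyte lists) and 42 lower, and the 16 genes were among the 87. The block pairs only numbers 4 and 5, so depleted 2 and control 3 drop out of the contrast; deviations of same-numbered libraries correlated at -0.05 and 0.06, and the numbers were not taken to pair libraries. The keratinocyte share difference ran from 0.774 to 2.25 percentage points over the single libraries left out. Genes at an unadjusted p below 0.05 numbered 74 with the keratinocyte covariate and 586 with library weights.

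For 82 genes followed, 1747 of 1786 values kept their direction and side of the threshold, 14 became calls and 25 changed sign, in 11 genes. The cause was not tested. Without depleted 4 and depleted 5 the log2 fold change was 0.0074 for Thy1, -0.31 for Epcam, 0.081 for Cxcl12, -0.65 for Sfn, -0.40 for Trp63, -0.15 for Krt1, -1.57 for Krt10, -1.65 for Krt5 and -1.43 for Krt14. Without depleted 4 and control 3 it was -0.27 for Epcam, -0.083 for Krt14 and -3.31 for Ddx3y. With the keratinocyte covariate it was -0.34 for Krt10, -0.62 for Krt5, -0.38 for Krt14 and -1.99 for Ddx3y. Col3a1 gave 0.0045 after quantile normalisation. Krt5 gave -0.095 and -0.039 without depleted 4 or depleted 5, and its highest value over single libraries left out was 1.52, without depleted 2. Ddx3y gave -1.09 and -0.74 without depleted 4 or depleted 5, -1.97 without control 3 and 2.57 without depleted 2, -0.19 after quantile normalisation, -1.23 with library weights and -0.016 with Xist as covariate. The median 95% interval was widest, at 2.55 log2 units either side, for genes with a mean under 10 units.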

Other observations

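Of 77 ribosomal protein genes 72 had a positive log2 fold change with a median of 0.31, and in 5 of them, Rpl3, Rpl4, Rpl8, Rpl32 and Rps19, the groups did not overlap (4.28% of all genes tested were higher without overlap). Rpl3 measured 1033, 1029 and 942 units in depleted libraries, against 703, 797 and 691 units in control libraries. The list took 4.23%, 5.17% and 3.70% of the signal in depleted libraries, against 4.16%, 3.12% and 2.98% in control libraries, so control 3 was level with the depleted libraries. Between the libraries with Xist the median was -0.08. Of 66 nuclear-encoded respiratory chain genes 54 were positive with a median of 0.21, which lay between 0.071 and 0.32 when each library was left out in turn; between depleted 2 and control 3 it was -0.07, with 36 negative. The 13 mitochondrially encoded genes had 9 negative and a median of -0.05. Between depleted 2 and control 3 all 13 were negative with a median of -0.68. Between the libraries with Ddx3y 0 were negative and the median was 0.28. Of the 66 respiratory chain genes 2 had an unadjusted p below 0.05 with higher values (1.39% of all genes did). These were Sdhd and Uqcrc1, subunits of complexes II and III, and their groups overlapped. Proliferation genes were positive in 28 of 33 with a median of 0.38, which was -0.42 without depleted 4 and depleted 5. Between depleted 2 and control 3 that median was 1.03, and between the libraries with Ddx3y it was 0.57. Of 10 pericyte and smooth muscle genes 8 were negative, and 3 were lower without overlap (4.19% of all genes were). These were Abcc9 and Kcnj8, partner subunits of a potassium channel of pericytes, and Steap4, named after its values were seen. Depleted 4 held about 2 reads of Abcc9 and 1 read of Kcnj8. For Kcnj8 depleted 2 and control 3 were level, at 21.9 and 22.3 units.

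The libraries labelled control macrophages 1 and 5 lacked macrophage transcripts: Cd68 measured 0.39 and 0.905 units in them, against 1887 units in control macrophages 3, and Ptprc measured 0.277 and 0.209 units, against 362 units. Their Pdgfra values were 297 and 435 units. Col1a1 measured 15309 and 28883 units. For the 16 genes of lowest p, the first of these libraries lay within the depleted range for 5 genes, within the control range for 2, between the groups for 8 and beyond the depleted range for 1. The other lay within the control range for 6, within the depleted range for 1, between for 8 and beyond the control range for 1. Neither was added to a group. The cell type label calls both macrophages, but number 5 has MFIBRO in its title, so its labels do not settle what it is.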
